A study of Mus musculus with 2 samples.

Results

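The sites described here were Myb ChIP-Seq peaks that lay deep inside protein-coding genes, in the second or a later intron. Of 25793 Myb peaks in the WT list, 3248 were of this kind, which was 12.6% of the list with an exact 95% interval of 12.2% to 13%. A peak was counted when its summit lay more than 3 kb from every transcript start annotated in GENCODE vM21, outside every annotated exon, and in intron 2 or later of the protein-coding transcript that spans most of its gene. These 3248 peaks lay in 1756 host genes. The position of the summit and the annotation alone chose them, so that peak strength, sequence and the other peaks of a gene were free to vary.

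ChIP-Seq had been carried out on lineage-negative (Lin–) bone marrow cells from WT mice, the marrow fraction left after removal of mature blood cells and rich in hematopoietic stem and progenitor cells (HSPCs). Chromatin from Lin– cells of over 80% purity was precipitated with an antibody against Myb or with IgG, and the IgG library served only as the background for peak calling. Each precipitate gave 1 library, so no value below has a replicate error and no test between samples could be made. The intervals given are 95% intervals for counting error over peaks or genes, and neighboring peaks of a gene are not independent of each other.

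Myb is a transcription factor of immature blood cells that binds a short DNA motif and recruits coactivators, among them the acetyltransferase p300. Transcription factors of HSPCs, including the RUNX, GATA, ETS and C/EBP families and the E-box factor Tal1, often meet at enhancers, which can lie far from the promoter they act on. Introns are a common place for such enhancers, and an intron may hold an enhancer of its own gene or of a neighbor. Lin– cells are a mixture, so a site bound strongly in few cells and one bound weakly in many cannot be told apart.

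The sequences below show what the strongest of these sites looked like. Each is the 101 bases centered on a summit, read from the mm10 (GRCm38) reference on the plus strand, with the motif in capitals. The Myb motif was searched as CAACGG or CAACTG or TAACGG or TAACTG on both strands. Among the 10 later intron peaks with the highest fold enrichment, the 4 whose window held it were those in Rnls, Ing3, Atp8b4 and Runx1.
Rnls intron 2, chr19:33223036-33223136, plus strand: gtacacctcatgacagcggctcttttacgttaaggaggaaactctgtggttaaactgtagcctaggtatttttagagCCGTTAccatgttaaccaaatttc
Ing3 intron 4, chr6:21959083-21959183, plus strand: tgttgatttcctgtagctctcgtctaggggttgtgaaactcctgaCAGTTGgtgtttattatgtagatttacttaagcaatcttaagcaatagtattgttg
Atp8b4 intron 3, chr2:126474113-126474213, plus strand: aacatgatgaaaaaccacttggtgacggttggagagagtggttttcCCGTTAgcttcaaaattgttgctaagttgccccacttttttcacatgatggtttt
Runx1 intron 2, chr16:92715615-92715715, plus strand: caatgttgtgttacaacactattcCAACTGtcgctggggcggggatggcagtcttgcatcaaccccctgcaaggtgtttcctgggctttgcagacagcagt
Each of these windows held 1 Myb motif, on the minus strand in Rnls, Ing3 and Atp8b4 and on the plus strand in Runx1. All 4 host genes are transcribed from the minus strand except Ing3. The capitals therefore stood on the coding strand in Rnls and Atp8b4 and opposite to it in Ing3 and Runx1.

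The other pattern worth seeing in letters was the composite of an E-box and a GATA motif, the arrangement that Tal1 and GATA factors bind together. It was searched as CANNTG, then 7 to 9 bases, then AGATAA or TGATAA. The 4 strongest later intron peaks that held it within 50 bp of the summit lay in Etv6, Glt8d2, Nfix and Mtss1, and their windows were chosen for printing after their values were seen.
Etv6 intron 3, chr6:134186382-134186482, plus strand: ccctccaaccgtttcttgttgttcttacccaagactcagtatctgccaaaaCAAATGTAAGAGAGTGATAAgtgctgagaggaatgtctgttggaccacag
Glt8d2 intron 3, chr10:82666632-82666732, plus strand: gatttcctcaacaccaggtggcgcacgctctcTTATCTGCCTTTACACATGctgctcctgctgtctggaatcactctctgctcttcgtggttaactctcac
Nfix intron 2, chr8:84730907-84731007, plus strand: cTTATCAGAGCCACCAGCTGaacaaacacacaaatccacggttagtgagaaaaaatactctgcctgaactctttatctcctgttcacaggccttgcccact
Mtss1 intron 3, chr15:59013007-59013107, plus strand: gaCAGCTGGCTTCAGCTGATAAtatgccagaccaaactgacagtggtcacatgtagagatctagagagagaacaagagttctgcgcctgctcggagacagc
None of these 4 windows held the Myb motif. The Etv6 peak was also the strongest of all 3248. A motif match is a description of the letters and does not show which factor was bound.

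The 10 strongest later intron peaks reached 18.5- to 24.4-fold over the background value used in peak calling, against a median of 4.47-fold for all 3248. The strongest lay in intron 3 of 8 of Etv6 (chr6:134185235-134187652), which encodes an ETS repressor needed for marrow hematopoiesis, with 24.4-fold enrichment from 91 reads at the summit (exact Poisson interval 73.3 to 112). A peak in intron 2 of 7 of Runx1 (chr16:92714766-92716681), the gene of a master regulator of definitive hematopoiesis, was 20.2-fold enriched and had the highest read count of any later intron peak, 130 (109 to 154). The peak in intron 2 of 4 of Fam107b (chr2:3656874-3658978) had 110 reads and 21.4-fold enrichment. These 3 peaks stood out in reads as well as in fold enrichment.

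The remaining 7 of the 10 had 60 to 73 reads each. In Rnls, which encodes the flavoprotein renalase, the peak lay in intron 2 of 4 (chr19:33222391-33224242) at 21.3-fold. The Ing3 peak (chr6:21958899-21959637, intron 4 of 11) was 21.02-fold enriched, in a gene for a subunit of the NuA4 histone acetyltransferase complex. Atp8b4, a P4-type ATPase gene, held its peak in intron 3 of 27 (chr2:126473441-126476201) at 20.6-fold. The Ing3 peak was the narrowest of the 10 at 739 bp, while that in Atp8b4 was the widest at 2761 bp.

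The other 4 lay in genes of varied function. The Rapgef2 peak (chr3:79160900-79161980, intron 7 of 29) was 20.1-fold enriched, in a gene for an exchange factor of the GTPase Rap. Csgalnact1, a chondroitin sulfate synthesis gene, had its peak in intron 2 of 9 (chr8:68605746-68607375) at 19.1-fold. In the zinc finger gene Hivep1 the peak (chr13:42093146-42094434, intron 2 of 8) also measured 19.1-fold. Gsr, which encodes glutathione reductase, held a peak of 18.5-fold in intron 4 of 12 (chr8:33673199-33674701). These 10 summits lay 4882 to 65974 bp from the nearest annotated start, the closest in Gsr and the farthest in Rnls.

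As a set, the later intron peaks were of ordinary strength for this library. Their fold enrichment ran from 1.90 to 24.4 with a median of 4.47 (4.45 to 4.51), next to 4.44 (4.37 to 4.47) for first intron peaks, 4.60 (4.51 to 4.69) for intergenic peaks 3 to 50 kb from a start and 4.54 for promoter peaks, meaning summits within 3 kb of a start. The interval touched that of first introns and just met that of intergenic peaks. Reads at the summit, solved from the values listed for each peak, had a median of 17 (range 8 to 130), and 60.6% of the members had fewer than 20 reads. A q-value above 0.05 was listed for 250 of them (7.70%), close to the 7.24% of the whole list. The typical member was 515 bp wide, and 41 (1.26%) exceeded 2 kb, compared with 4.83% of promoter peaks. Values for single weak sites below about 20 reads thus carry a wide counting error.

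The density of Myb peaks in later introns was below that of first introns and above that of intergenic sequence. Later introns that met the rule covered 554.9 Mb, 21% of the sequenced bases, and held 5.85 peaks per Mb (5.65 to 6.06). First introns, defined in the same way, held 12.6 (12.0 to 13.1) and intergenic sequence 3 to 50 kb from a start 4.50 (4.36 to 4.64). The density ratio was 0.466 (0.442 to 0.492) to first introns and 1.30 (1.24 to 1.36) to intergenic sequence. Both intervals lay away from 1. Bases to which reads cannot be mapped were not removed from these lengths, and repeats made up 44.5% of the intergenic bases but 29.7% of the later intron bases and 29.6% of the first intron bases. The part of mappability in the intergenic ratio was not tested.

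Since peaks thin out away from promoters, the classes were compared at matched distance. Later intron density fell from 9.70 per Mb at 3 to 5 kb from the nearest start to 8.65 at 5 to 10 kb, 6.74 at 10 to 20 kb, 4.50 at 20 to 50 kb, 2.82 at 50 to 100 kb and 1.06 beyond 100 kb. The ratio to first introns was 0.430 (0.382 to 0.483) nearest the starts and 0.605 (0.527 to 0.695) at 20 to 50 kb, and at 50 to 100 kb it was 1.02 (0.743 to 1.44), where no difference could be resolved. Against intergenic sequence the ratio was above 1 in every bin and rose as well, from 1.23 (1.10 to 1.37) at 3 to 5 kb to 2.38 (1.98 to 2.86) at 50 to 100 kb and 3.48 (2.32 to 5.20) beyond 100 kb. Beyond 100 kb the ratio to first introns was 0.718 with a wide interval (0.368 to 1.53), since that bin rested on 49 later intron peaks and 11 first intron peaks.

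**Figure D1:**
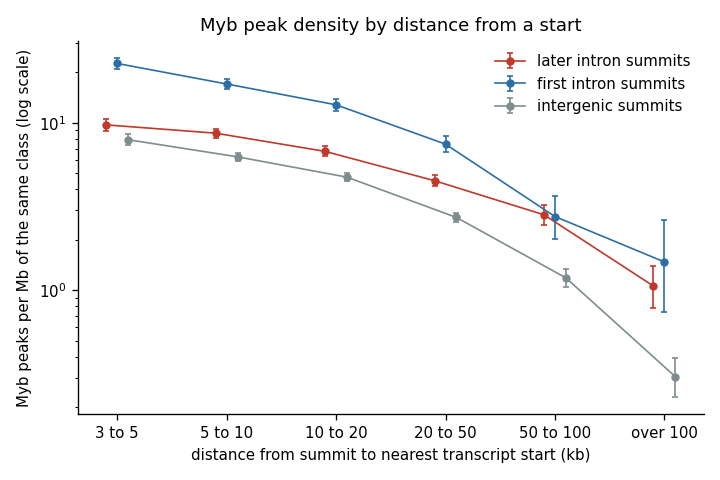
Myb peaks per Mb of sequence of the same class (log scale) against the distance from the summit to the nearest transcript start in kb, for later introns, first introns and intergenic sequence, with 95% Poisson intervals for counting error. The later intron points lie below the first intron points up to 50 kb (9.70 against 22.6 per Mb at 3 to 5 kb), meet them at 50 to 100 kb (2.82 against 2.75) and lie above the intergenic points in every bin.

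Within the later introns, the density fell with the rank of the intron. Intron 2 held 1050 members (32.3%) at 8.63 per Mb (8.11 to 9.16), intron 3 held 6.67, intron 4 6.03, intron 5 5.19, introns 6 to 10 4.69 and intron 11 or later 3.99 (3.65 to 4.34). The median distance to a start was alike, at 10038.5 to 12788 bp in each rank. At equal distance up to 50 kb, intron 2 was denser than the later ones by a ratio of 1.86 (1.56 to 2.21) at 3 to 5 kb, 1.72 (1.49 to 1.97) at 5 to 10 kb, 1.59 (1.36 to 1.84) at 10 to 20 kb and 1.73 (1.46 to 2.04) at 20 to 50 kb. The ratio of 1.31 at 50 to 100 kb had an interval that included 1 (0.941 to 1.79), and so did the ratio of 0.578 (0.201 to 1.36) beyond 100 kb, where intron 2 held 6 members. Median fold enrichment differed little by rank, from 4.44 in intron 5 to 4.62 in intron 4, and the share of summits with a Myb motif was 18.5% to 22.1% with overlapping intervals.

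Position inside the intron mattered less. With each intron split into 3 equal parts, the density was 5.54, 6.11 and 5.89 per Mb from its 5′ to its 3′ end. Summits less than 0.5 kb from an exon occurred at 5.27 per Mb (4.76 to 5.82), those at 2 to 10 kb at 7.26 (6.86 to 7.68) and those over 10 kb away at 4.40 (4.12 to 4.70). The median member lay 3788 bp from an exon, in an intron of 17.8 kb, and 327 (10.1%) were in the last intron of their transcript. In 2961 members (91.2%) the whole peak, not only the summit, was free of exons. The nearest start belonged to the host gene for 2076 of 3248 (63.9%, 62.2% to 65.6%), and to another annotated gene, coding or not, for the rest.

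Chromosomes differed. The 19 autosomes held a median of 6.41 later intron peaks per Mb, from 3.99 on chromosome 14 to 9.02 on chromosome 11. The X chromosome held 31 members in 26.6 Mb, or 1.16 per Mb (0.791 to 1.65), and the Y chromosome 0 in 2.32 Mb, which allows up to 1.59 per Mb. The X to autosome ratio was 0.190 (0.129 to 0.271) for later introns, next to 0.196 for intergenic sequence 3 to 50 kb from a start, 0.292 for first introns and 0.338 (0.295 to 0.386) for promoters. The intervals of later introns and promoters did not overlap. Among the few X-linked hosts were Kdm6a, which encodes a histone H3 lysine 27 demethylase, with 4 members of 4.47- to 6.34-fold, and the erythroid factor gene Gata1 with 1 member of 7.90-fold (25 reads).

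The Myb motif was present within 50 bp of the summit in 655 of 3248 members, 20.2% (18.8% to 21.6%). In windows of equal length 500 bp to either side of the same summits, it was present in 11.5% (10.7% to 12.3%), so that the summit-to-flank ratio was 1.76 (1.60 to 1.94). The share at later intron summits was above that at first intron summits (17.9%) by 2.25 points (0.120 to 4.33). The interval of this difference included 0 under 6 of 13 other settings, with values of 0.936 to 3.66 points over all 13, so it was barely resolved. The share was above that at promoter summits (14.7%) by 5.50 points (4.04 to 7.02), and differed from that at intergenic summits (19.3%) by 0.824 points with an interval that included 0 (-1.02 to 2.68). Across all 25793 Myb peaks the share was 16.7%. About 4 in 5 members held no such motif near the summit, which says only that these letters were not in this window.

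The 4 forms of the motif were not equally concentrated at summits. CAACGG was present at 2.28% of summits and 0.831% of flanks, a ratio of 2.74 (1.93 to 3.88), and TAACGG had a ratio of 2.93 (2.01 to 4.27). Their counterparts ending in TG were more frequent and less concentrated. CAACTG was present at 8.41% of summits with a ratio of 1.58 (1.35 to 1.84), and TAACTG at 8.81% with 1.70 (1.46 to 1.98). The interval of TAACGG lay above those of both forms ending in TG, and that of CAACGG overlapped the one of TAACTG by little.

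Around the summit the motif formed a broad hump, not a sharp spike. Motif centers within 10 bp of the summit numbered 165, or 5.08 per 100 peaks in 20 bp (4.33 to 5.92), and the bins centered 100 bp to the left and right still held 4.56 and 3.79. Of the 628 windows with the motif on 1 strand only, 363 (57.8%, 53.8% to 61.7%) had it opposite to the coding strand of the host gene. The flanks leaned the same way with 53.7% (49.95% to 57.3%), the difference of 4.14 points had an interval that included 0 (-1.17 to 9.41), and first intron summits gave 57.2%. A lean specific to summits was therefore not resolved. There were 71 members with 2 or more Myb motifs in the window.

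**Figure D2:**
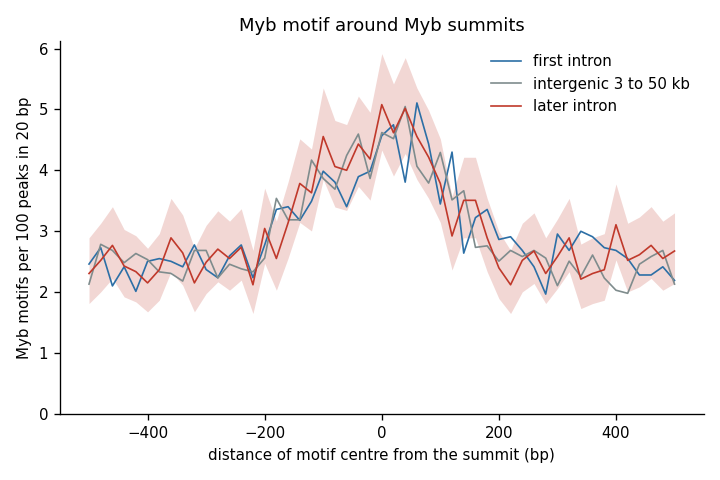
Myb motif centers per 100 peaks in bins of 20 bp against their distance from the summit in bp, for later introns (shaded, 95% Poisson interval), first introns and intergenic peaks 3 to 50 kb from a start. The later intron line peaks at 5.08 at the summit, is still 4.56 and 3.79 at 100 bp to the left and right, and runs together with the other lines.

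Motifs of other factors of immature blood cells were also concentrated at these summits, some with higher ratios than that of Myb and some with lower ones. Of 15 motif families searched, 8 had a summit-to-flank ratio whose interval lay above 1. The E-box–GATA composite led with 4.50 (2.28 to 8.87), although it was rare, at 27 summits (0.831%) and 12 flanks. ETS motifs followed at 7.24% of summits against 2.80% of flanks (ratio 2.58, 2.14 to 3.12), then C/EBP at 7.45% against 3.62% (2.06, 1.73 to 2.45), RUNX at 15.9% against 8.97% (1.77, 1.59 to 1.98), and Myb in place 5. GATA motifs (19.6%, ratio 1.75), MEIS motifs (10.3%, ratio 1.50) and the Tal1-type E-box (17.4%, ratio 1.49) completed the group. By share of summits the Myb motif was first, within counting error of GATA.

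For other regulators the ratio was mostly not resolved from 1. It was 1.04 (0.744 to 1.46) for IRF, 1.07 (0.847 to 1.36) for AP-1, 0.793 (0.490 to 1.28) for CTCF and 0.972 (0.849 to 1.11) for SP/KLF, and NF-kB and NRF1 motifs were rare, at 14 and 1 summits. CTCF and NF-kB changed with the setting. The CTCF ratio was 0.320 (0.112 to 0.918) when only peaks at −log10 q-values of 5 or more were kept, and the NF-kB ratio 2.06 (1.29 to 3.29) in windows of 100 bp to each side. The NFY ratio was 0.799 (0.670 to 0.953), and its interval included 1 under 3 of 6 other settings, with the value closest to 1, 0.959 (0.852 to 1.08), in the windows of 100 bp. SP/KLF motifs, typical of GC-rich promoters, were present at 8.68% of later intron summits but 18.4% of promoter summits, a difference of -9.67 points (-10.8 to -8.49). Later intron windows were less GC-rich than promoter windows, with a median of 45.5% against 51.5%. GATA motifs showed the reverse, at 19.6% against 10.1% of promoter summits, a difference of 9.51 points (8.09 to 11). Against intergenic peaks the clearest difference was that of SP/KLF, at -2.45 points (-3.82 to -1.06). The ETS share differed by -1.28 points (-2.52 to -0.0261), the AP-1 share by -0.960 points (-1.81 to -0.0913) and the GATA share by 1.86 points (0.0544 to 3.68), each with an interval that came close to 0.

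**Figure D3:**
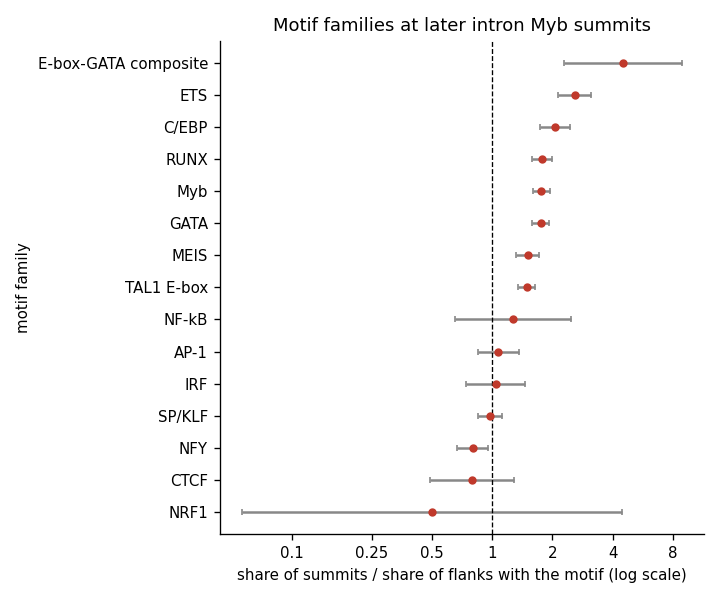
Share of later intron summits with a motif divided by the share of flanking windows with it (log scale), for 15 motif families, with 95% intervals for counting error and a dashed line at 1. The composite (4.50), ETS (2.58) and C/EBP (2.06) lie farthest to the right, Myb stands at 1.76, and the intervals of IRF, AP-1, CTCF and SP/KLF cross the line.

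The motifs of different families were then counted together. Over Myb, ETS, RUNX, GATA, Tal1-type E-box and C/EBP, 595 members (18.3%, 17.0% to 19.7%) had 2 of the 6 families within 50 bp of the summit, against 7.22% of flanks, and 126 (3.88%, 3.24% to 4.60%) had 3 or more, against 0.831%. None of the 6 was found in 1255 members (38.6%), compared with 59.2% of flanks. Each family was by itself more frequent at summits, and the 6 single shares, multiplied as if unrelated, give 38.3% with none, 17.2% with 2 and 4.20% with 3 or more, close to what was counted. Members with a Myb motif held a C/EBP motif more often than members without one (10.5% against 6.67%, a difference of 3.86 points, 1.50 to 6.60), and likewise a MEIS motif (14.0% against 9.29%, 4.75 points, 2.03 to 7.81). For ETS, RUNX, GATA and the Tal1-type E-box the interval of this difference included 0. The MEIS letters, TGACAG, can overlap the Myb letters by their last 3 bases, and the part of this overlap was not tested.

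Stronger peaks held the Myb motif more often. When the members were ranked and divided into 4 groups of near-equal size, the Myb motif in the lowest group, of up to 3.71-fold, was present at 17.4% of summits with a ratio of 1.44 (1.18 to 1.76), and in the highest, from 5.80-fold upward, at 25.8% (22.8% to 29.0%) with a ratio of 2.16 (1.82 to 2.58). Members with the motif had a median fold enrichment of 4.78 (4.55 to 4.94) and those without it 4.45 (4.36 to 4.47). RUNX and GATA motifs were also more frequent in the highest group than in the lowest, at 19.3% against 14.5% and 22.5% against 16.8%. Neither share rose at every step, and the RUNX intervals overlapped (16.6% to 22.2% and 12.1% to 17.2%). So did those of the Tal1-type E-box (20.8% against 17.5%) and C/EBP (8.60% against 6.26%). The ETS share was 6.38% in the lowest group and 7.37% in the highest, with ratios of 2.62 and 2.45, so that no trend was resolved for ETS.

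Turning to the genes, a later intron peak was found in 1756 of the 14575 protein-coding genes that had later intron sequence more than 3 kb from a start, which is 12.0%. Long genes offer more sequence, with a median of 45.6 kb in the host genes and 9.36 kb in the others. Among the 7760 genes with at least 10 kb of such sequence, 19.9% held a peak. Most hosts, 1097 of 1756, had 1 member, while 659 (37.5%, 35.3% to 39.8%) had 2 or more and together held 2151 of the 3248 peaks. There were 106 genes with 5 or more. In a 25 kb window centered on the summit, another Myb peak of any class was present for 57.4% of the members (55.7% to 59.1%), compared with 77.0% of first intron peaks and 63.2% of intergenic peaks.

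Genes with a peak in a later intron tended to have a Myb peak at a promoter too. A summit within 3 kb of an annotated start of the same gene was found for 1173 of 1756 hosts (66.8%, 64.5% to 69.0%) and for 40.9% of the 12819 other genes with eligible later introns, a difference of 25.9 points (23.5 to 28.2). The difference held at each gene length. It was 33.4 points (27.1 to 38.9) for genes with under 10 kb of eligible sequence, 26.3 for 10 to 50 kb, 33.2 for 50 to 200 kb and 32.3 (24.2 to 40.2) above 200 kb. Per Mb, later introns of genes with a promoter peak held 11.6 peaks (11.2 to 12.1) and those of genes without one 2.41 (2.25 to 2.58), a ratio of 4.82 (4.46 to 5.22). Counted over fewer genes, first intron peaks followed the same course, at 347 of 1183 hosts (29.3%) against 774 of 6404 other genes (12.1%). At the other end, 529 of the 1756 hosts had neither a promoter nor a first intron peak. The first intron share above rested on only 1183 of the hosts, and no matching count is given for other genes. No excess or lack can therefore be read from the 529.

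The genes with the most later intron peaks were Cdk6 (24), Pde4d (23), Erg (16), Akap13 (16), Gse1 (15), Arid1b (15), Etv6 (13), Runx1 (13), Sgms1 (13) and Prkar2b (12), followed by Cd47 with 11. They are long genes, and their count per 100 kb of eligible sequence ranged from 2.27 in Pde4d to 15.7 in Cdk6. All later introns together held 5.85 per Mb, so that even Pde4d stood above them. Counts chose these genes, and the values are given as a description.

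Cdk6 encodes a kinase that drives entry into the cell cycle in HSPCs. Its 24 peaks were spread over 5 introns and 167 kb, with 9 of them in the 46.1 kb of intron 2 and others in introns 3 to 6. Their fold enrichment was 2.73 to 9.08 with a median of 5.24, the strongest (chr5:3404784-3405708, intron 3) at 45 reads. A Myb motif lay near 2 of the 24 summits. The gene thus carried many sites of moderate strength.

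Erg and Runx1 held fewer sites, and their strongest ones were stronger than any in Cdk6. Erg, an ETS factor gene required for stem cell maintenance, held 13 of its 16 peaks in the 115 kb of intron 3, at 2.78- to 14.6-fold over the gene with a median of 5.46, near that of Cdk6. Its strongest (chr16:95438409-95440845) had 88 reads and 2 Myb motifs, and 7 of the 16 summits had at least 1. In Runx1, 11 of the 13 peaks lay in the 130 kb of intron 2, and the median fold enrichment of 8.87 was the highest of the 10 genes. Besides the 130-read site described above, a peak at chr16:92800168-92802626 reached 15.6-fold with 100 reads and one at chr16:92820764-92822937 11.2-fold with 57 reads. These 3 were the broadest of the Runx1 peaks.

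In Etv6 the 13 peaks lay in introns 2 and 3, and 12 of them were between 2.45- and 11.4-fold. The exception was the 24.4-fold site, and the 11.4-fold peak (chr6:134189472-134191037, 43 reads) lay in the same intron. Arid1b, a subunit gene of the BAF chromatin remodeling complex, had 15 peaks in 6 introns at 2.73- to 7.12-fold, with a Myb motif at 6. All 15 peaks of Gse1 lay in its intron 2, the last of the transcript used, at 2.94- to 11.4-fold.

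Pde4d, Akap13 and Prkar2b encode, in this order, a phosphodiesterase that degrades cAMP, an anchoring protein for cAMP-dependent kinase and a regulatory subunit of that kinase. Pde4d had 19 of its 23 peaks in intron 3, which is 708 kb long, at up to 10.3-fold. The 16 peaks of Akap13 were scattered over 7 introns at 3.50- to 9.78-fold. Prkar2b held 9 of 12 peaks in the 44.8 kb of intron 2, at 15.5 per 100 kb over the gene. The sphingomyelin synthase gene Sgms1 had 13 peaks in 5 introns at 3.14- to 8.28-fold, with a Myb motif at 1.

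**Figure D4:**
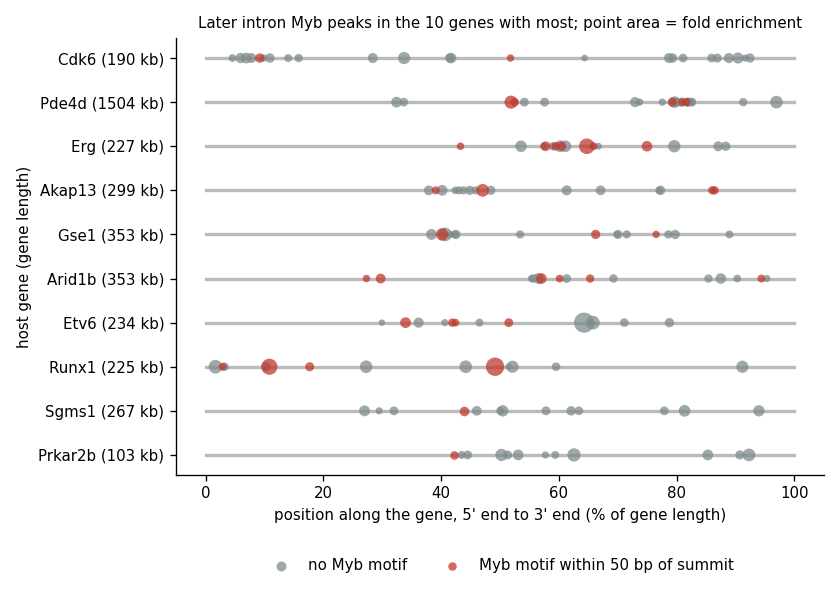
Later intron Myb peaks along the 10 genes that held the most, by position from the 5′ to the 3′ end of the gene in percent of its length. Point area is proportional to fold enrichment, and red points have a Myb motif within 50 bp of the summit, as 7 of 16 do in Erg and 2 of 24 in Cdk6. The largest points are the 24.4-fold site in Etv6 and the 20.2-fold site in Runx1.

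Gene lists of 40 members each, with all names matched to the annotation, were then read against the 12.0% of all eligible genes. The lists were chosen with earlier results of these data known. Their shares, densities and intervals are therefore a description and not an independent test. Among stem and progenitor transcription factors, 23 of 33 eligible genes (69.7%, 51.3% to 84.4%) held a later intron peak, at 55.2 peaks per Mb (45.9 to 65.8), and 21 of the 23 also had a promoter peak. After Erg, Etv6 and Runx1 came Zeb2, a zinc finger repressor gene, with 10 peaks of 2.51- to 7.38-fold. The list also held the lymphoid regulator Ikzf1 with 7 peaks, the GATA cofactor Zfpm1 with 7 in 20.2 kb, the fetal globin repressor Bcl11a with 6 and the homeobox gene Meis1 with 5. Eligible genes without a peak were Gfi1b, Mecom, Foxo1, Tal1, Cbfb, Irf8, Cbfa2t3, Fli1, Ets1 and Tcf3. Among genes of this list with at least 10 kb of eligible sequence, 80% (59.3% to 93.2%) held a peak, next to the 19.9% of all such genes.

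Signaling and surface genes lay between. In the kinase, PI3K and small GTPase list, 20 of 39 genes (51.3%) held a peak at 11.8 per Mb, led by the kinase gene Prkca with 6 peaks of up to 11.6-fold, the lipid phosphatase gene Inpp5d with 6, the ubiquitin ligase gene Cblb with 5 and the PI3K subunit gene Pik3r1 with 4. Of the cytokine receptors, integrins and surface receptors, 16 of 37 (43.2%) held one, at 35.5 per Mb. Cd47, whose product signals to macrophages not to engulf the cell, led with 11 peaks of 3.15- to 12.4-fold, followed by Igf1r with 6 and the phosphatase gene Ptprc (CD45) with 4. Flt3, a receptor of early progenitors, had 2 peaks, 1 of them 16.6-fold. No member lay in Kit, Csf1r or Csf3r.

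Chromatin and DNA methylation regulators held a peak in 17 of 40 genes (42.5%), at 17.2 per Mb. Arid1b led with 15, followed by Kdm6a with 4, the remodeler gene Chd7 with 3 and the methyltransferase gene Dnmt3a with 3 of 4.74- to 9.15-fold. Crebbp, the paralog of Ep300, had 1 member of 7.26-fold, and Ep300 had none in 13.4 kb of eligible sequence. The Polycomb gene Ezh2 had 1 of 7.89-fold.

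Genes of maturing lineages were mixed. Erythroid and megakaryocyte genes held a peak in 8 of 27 cases (29.6%, 13.8% to 50.2%), and 8 of the 15 peaks lay in Car2, the carbonic anhydrase 2 gene, within 9.90 kb of eligible sequence. Over the list the density was 29.7 per Mb (16.6 to 49.0), next to 5.85 for all later introns. That interval counts the 8 peaks of Car2 as independent, so the density leans on this gene. The 8 in Car2 were 3.41- to 6.81-fold with 12 to 21 reads, a dense run of weak sites. Gata1 had 1 peak at 7.90-fold and Sptb (a spectrin) 1 at 5.11-fold. Of the lymphoid genes, 6 of 32 (18.8%, 7.21% to 36.4%) held a peak, at 7.16 per Mb (4.09 to 11.6), led by Foxp1 with 8, Bach2 with 3, Lef1 with 2 and Ebf1 with 1. Neutrophil and macrophage genes, which are short, held one in 2 of 19 (10.5%), with 4 peaks in Gsr and 1 in Ms4a3, which in 0.241 Mb of eligible sequence came to 20.7 per Mb (6.72 to 48.3). The share of genes in the lymphoid and the neutrophil lists had an interval that included 12.0%. The density interval of the neutrophil list counts peaks of the same gene as independent. With 4 of its 5 peaks in Gsr, that density describes mainly 1 gene, and no excess over all later introns can be read from it for the list.

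Long neuronal and muscle genes were the contrast. They offered 29.9 Mb of eligible later intron sequence, a median of 636 kb per gene against 37.5 kb in the transcription factor list, and 6 of 40 (15%, 5.71% to 29.8%) held a peak, where 19.9% of all genes with 10 kb or more did. The density was 0.268 peaks per Mb (0.116 to 0.528), compared with 5.85 over all later introns. These 2 values were not matched for distance to a start. Over all genes the later intron density beyond 100 kb was 1.06 per Mb (0.782 to 1.40). The part of distance in the low density of this list was not tested. The calcium channel gene Ryr1 had 2 peaks of 2.22- and 2.35-fold, while Cntnap2 and Csmd3 had 1 each. In this list, long introns thus did not go with many peaks.

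**Figure D5:**
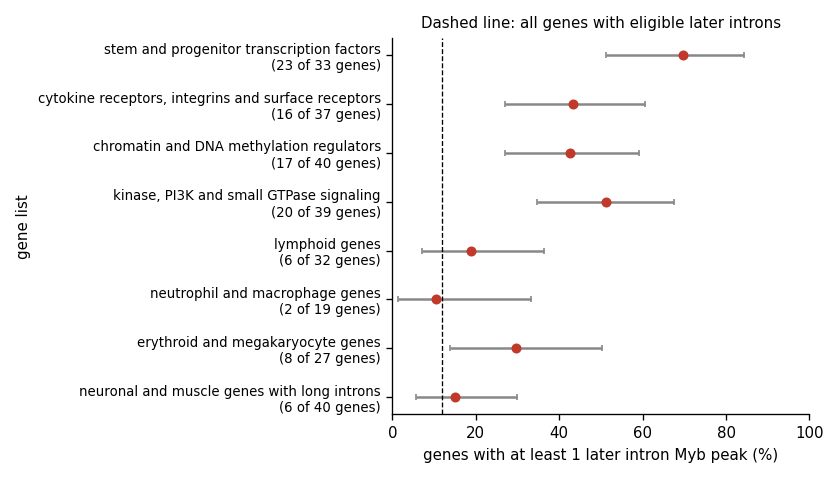
Percent of eligible genes with at least 1 later intron Myb peak in 8 gene lists, with exact 95% intervals for counting error and a dashed line at the 12.0% of all eligible genes. Stem and progenitor transcription factors stand at 69.7%, while the intervals of the lymphoid, neutrophil and macrophage, and neuronal and muscle lists include the line. The lists were chosen with earlier results of these data known.

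Several genes at the center of the study held weak to moderate later intron sites. Myb itself had 4 members in 15.2 kb of eligible sequence, or 26.3 per 100 kb, more than any of the 10 genes above (at most 15.7). All 4 lay in intron 15 of the transcript used, at 3.41-fold (chr10:21131176-21131468, 12 reads), 3.33-fold (16 reads), 4.04-fold (14 reads) and 3.15-fold (11 reads). All 4 were below the median of the class and 2 of them held a Myb motif. Notch1, a receptor that steers lymphoid fate, had 1 member of 4.81-fold with 22 reads and a Myb motif (chr2:26483222-26483793, intron 4 of 33). Dntt, which encodes the terminal transferase of lymphoid progenitors, had 1 of 5.43-fold with 25 reads (chr19:41038879-41039729, intron 3 of 11). Spi1, the gene of the myeloid and lymphoid factor PU.1, had 1 of 4.51-fold with 16 reads (intron 2 of 3), and the chromatin regulator gene Asxl1 1 of 3.69-fold with 12 reads (intron 2 of 11). None of these 5 genes had a member above 5.43-fold. Per 100 kb of eligible sequence, the single peaks of Notch1, Dntt, Spi1 and Asxl1 came to 4.53, 4.89, 7.01 and 2.49. Any gene of such length with 1 peak lies above the average of all later introns by arithmetic. These values therefore show no excess.

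No later intron peak lay in Tet2, Tal1, Irf8 or Ep300, although each had at least 1 promoter peak. Only 12.0% of all eligible genes held a later intron peak, and 19.9% of those with at least 10 kb of such sequence. Having none was therefore the usual case. In Tet2, which encodes a DNA demethylase, 27.3 kb were eligible, in Ep300 13.4 kb, in Tal1 5.23 kb and in Irf8 0.728 kb. The last had the least room for one. Gata2 and Srsf2 had no later intron sequence more than 3 kb from a start, and their 7 and 3 promoter peaks fall outside the class. For such compact genes the absence of a member follows from the rule and not from the data.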

How the data were processed

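ChIP-Seq of Lin– bone marrow cells from WT mice gave 1 Myb and 1 IgG library, grouped by sample title (1 μg of chromatin, 1.5 μg of antibody, 14 sonication cycles, Tn5 tagmentation on beads, 12 PCR cycles). The authors used Cutadapt 1.15 for trimming, BWA 0.7.13 for alignment (mm10) and Picard for duplicate removal, filtered by mapping quality and blacklist, called peaks over IgG by MACS2 2.1.1.20160309 and retained those shared between pseudo-replicates. In the deposited list the fold enrichment was read as the ratio of Myb pileup to the background value at the summit, with 1 added to each. That background value need not be the IgG signal at the site itself. The p-value and q-value were deposited by the authors as −log10 values. The deposited score, 10 times the −log10 p-value rounded down and held at 1000 in all 25793 rows, was not used.

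Summits were classified with GENCODE vM21 and lengths counted on the GRCm38 reference in Python 3.11.15 with numpy 2.4.6, scipy 1.17.1 and pandas 2.3.3. A summit in later introns of several genes was given to the gene with the smallest span (123 members lay inside more than 1 protein-coding gene). Reads at the summit were solved from fold enrichment and p-value, at a pileup scale of 0.76945 per read. Whole reads within 0.002 of the log10 p-value were found in 100% of rows, and for the 1.24% with more than 1 solution the closest was used. The total reads of each library are not given in the sources used here. Intervals were exact binomial (Clopper-Pearson) for shares, exact Poisson for counts and densities, conditional binomial for density ratios, Newcombe for differences, Katz for ratios of shares and order statistics for medians. They cover counting error only, and PCR duplicates were removed by position without molecular identifiers. Intervals that set summits against flanks treat the windows as independent, and their pairing within each peak was not used. Motifs were searched on both strands within 50 bp of the summit and in flanks 500 bp to each side. The classification and motif code was tested on simulated data.

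Named were the 10 strongest members, the 10 genes with most members, up to 4 leading genes per list, the genes the study names, and the 4 strongest members with an E-box–GATA composite. Other genes were named after their values were seen. The members, motif families and gene lists were chosen with earlier results of these data known. Alternatives were other q-value limits, start windows, transcripts, motif settings, neighbor distances and length limits.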

Additional observations from a re-analysis of the deposited data

How the results depend on the processing

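Of 228 values recomputed, 182 stayed within the counting interval of the reported value (counts within 1.5 times). Of 13 ratios and differences whose reported interval lay away from 1 or 0, none changed direction and 11 kept such an interval under every alternative run for them. The other two were the Myb motif share against first introns (interval including 0 with −log10 q-values of at least 2, the 10 kb start window, AACNG, windows of 25 and 100 bp and the strongest peak of each gene) and the NFY ratio (−log10 q-values of at least 5, windows of 25 and 100 bp). Of 7 that were not resolved, 3 changed side, the Myb motif share against intergenic peaks (-0.209 points at the 10 kb start window) and the IRF and SP/KLF ratios (0.902 to 1.146 and 0.953 to 1.10). With −log10 q-values of at least 2, the density of later intron peaks was 4.92 per Mb, the median fold enrichment 4.78, and the shares of hosts with a promoter peak, of peaks with a neighbor in the 25 kb window and of hosts with 2 or more peaks were 62.5%, 52.6% and 34.4%. At 5 or more, 1282 peaks in 898 hosts remained, at 2.31 per Mb and 1.151 times the intergenic density, with a median of 6.34-fold. There the Myb motif share was 24.7% and its summit-to-flank ratio 2.14, while the promoter peak share was 46.1% (20.7 points above other genes), that with a neighbor 36.9%, that of hosts with 2 or more peaks 24.3% and that of all list genes with a peak 23.4%. A start window of 1 kb gave 6.53 per Mb, a ratio to first introns of 0.383 and 62.4% of hosts with a promoter peak. A window of 10 kb left 1741 peaks in 974 hosts at 4.49 per Mb, a ratio of 0.534, a median of 4.55-fold and 72.2% with a promoter peak. Spelled YAACNG, the motif was at 34.6% of summits (ratio 1.59), and as AACNG at 58.9% (1.33). Windows of 25 and 100 bp gave 10.3% and 35.5%, the latter with a ratio of 1.59. With only the strongest peak of each gene, the median was 4.97-fold and the motif ratio 2.01. Within 5 kb, 39.7% of members had a neighbor. Of list genes with at least 10 kb eligible, 44.9% held a peak, against 36.8% of all. Without peaks inside more than 1 protein-coding gene, an alternative added after seeing the data, the density was 5.63 per Mb over the same bases. No paired analysis of samples was possible because each group had 1 library, and no test was made. With 60.6% of members under 20 reads, single weak sites are the least certain.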
